A study of Homo sapiens with 24 samples.

Results

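CDH1, EPCAM, CDH2, VIM, FN1, ZEB1, ZEB2, SNAI1, SNAI2 and TWIST1 are genes by which epithelial and mesenchymal cells are commonly told apart. They were taken by symbol, as every probe of the arrays whose gene name was 1 of these 10, out of 21410 named genes. The arrays were 24 two-colour Agilent expression arrays, each with RNA of treated cells of 1 cancer cell line in Cy5 and of control cells of the same line in Cy3. The 16 arrays of the first array design hold 14 probes of these genes among 42405, and the 8 arrays of the second design hold 15 among 50599. All 7 lines are established human lines. PC3, DU145 and LNCap are prostate cancer lines, A498 and 786O are renal cell carcinoma lines, and FaDu and SAS are head and neck squamous cell carcinoma lines. On the first design PC3 and DU145 were treated with genistein against control cells, which the labels call untreated and the study's methods describe as given vehicle (dimethylsulfoxide), and SAS and FaDu with wogonin against DMSO. CAV2 was knocked down by siRNA (si-CAV2) in A498 and 786O and LAMB3 (si-LAMB3) in FaDu and SAS, each against control siRNA. The transfected miRNAs were miR-145 in PC3, DU145 and LNCap, miR-375 in FaDu, miR-29a in SAS, and miR-23b, miR-24 and miR-27b in PC3, each against control miRNA. On the second design DU145 and PC3 received miR-143 or siRNA against GOLM1 (si-GOLM1), 786O and A498 received miR-27b, and 786O was treated with CXCL10 for 12 h or 24 h against untreated cells. Each combination of line and treatment was 1 array, the dyes were never swapped, and the PC3 arrays of miR-23b, miR-24 and miR-27b name the same control RNA.

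Epithelial cells adhere through E-cadherin, the product of CDH1, and carry EPCAM, an adhesion molecule of the epithelial surface. In epithelial to mesenchymal transition, cells lose these junctions and gain N-cadherin (CDH2), the intermediate filament vimentin (VIM) and the matrix protein fibronectin (FN1). ZEB1, ZEB2, SNAI1, SNAI2 and TWIST1 encode transcription factors that drive the transition. The ZEB and SNAI factors bind E-box letters in the CDH1 promoter and repress it. In carcinoma the programme is often partial, and carcinoma lines differ widely in where they stand on it.

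The transfected miRNAs are shown because the ratios of CDH1 past a 2-fold limit all came from miRNA arrays. The sequences are the mature miRNAs of RefSeq on GRCh38.p14, 5′ to 3′, with the seed (bases 2 to 8) in capitals. The labels do not give the arm, so the sequences are those of the arm commonly meant by the name.
miR-23b-3p, chr9:95085265-95085287: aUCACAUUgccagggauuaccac
miR-27b-3p, chr9:95085505-95085525: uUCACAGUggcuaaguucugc
miR-24-3p, chr9:95086064-95086085: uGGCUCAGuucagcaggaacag
miR-375-3p, chr2:219001648-219001669: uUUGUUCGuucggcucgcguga
miR-29a-3p, chr7:130876748-130876769: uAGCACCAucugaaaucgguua
miR-145-5p, chr5:149430661-149430683: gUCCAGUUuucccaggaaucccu
miR-143-3p, chr5:149428978-149428998: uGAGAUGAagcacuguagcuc
The minus strand holds miR-375 and miR-29a and the plus strand the others. No seed was shared by any of these 7 miRNAs. The seeds of miR-23b and miR-27b both begin with UCACA. The table lists miR-24-3p at 2 loci, and the one given lies next to miR-23b and miR-27b.

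The probes were well above background at 53.2% to 67.6% of non-control spots in Cy3 and 54.2% to 68.9% in Cy5, and no spot was saturated. A level is the Cy3 signal in log2 relative to the 75th percentile of its array, and 1 unit is a 2-fold difference. Levels compare lines for 1 gene and do not rank genes against each other. Control channels of the same line but different experiments differed by a median of 0.207 to 0.67 over the tested probes, and the 3 channels naming one PC3 control by 0.1 to 0.115, so these 3 were averaged to 1 RNA. On the first design LNCap, A498 and 786O each had 1 control RNA, as A498 had on the second, and were assumed to vary like the other lines. Nothing in the labels says that the controls of a line came from separate cultures, so p-values measure only the spread between these RNAs. Most markers of the labelled origins, but not all, were highest in the lines of that origin. The luminal prostate genes FOLH1 (7.60) and KLK3 (2.83) were highest in LNCap, the renal genes PAX8 and PAX2 were highest in 786O (3.08 and 1.93), and the squamous keratins KRT14 and KRT5 were highest in FaDu (7.03 and 6.19). KLK3 was low in PC3 (-5.30) and DU145 (-4.90). Against the labels, the renal gene CUBN was highest in SAS (0.35) and at -6.15 and -6.06 in 786O and A498, the renal gene SLC13A3 was highest in FaDu (-2.34), the squamous gene SERPINB5 was highest in PC3 (2.97), and the renal gene LHX1, highest in A498 (5.24), was also high in DU145 (3.12) and SAS (2.90).

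All 10 genes differed between the 7 lines of the first design (limma F test over all probes, adjusted p from 4.54e-07 for VIM to 0.0143 for SNAI2), where 52.2% of all tested probes did. They also all differed between the 4 lines of the second design, where 30.4% of probes did. In the first design 132 of the 210 comparisons of 1 gene between 2 lines passed the test, against 5.35% to 29.6% of all probes over the 21 pairs of lines. In the second design 36 of 60 did, against 8.53% to 21.0% over 6 pairs. On the first design 786O and A498, both renal, differed in 1 gene of the 10 (5.35% of probes) and the squamous lines FaDu and SAS in 2 (17.9%). LNCap differed in 4 from DU145 (16.8%), FaDu (21.0%) and SAS (22.5%), and in 6 from PC3 (19.9%). PC3 also differed in 5 from A498 (16.7%), 6 from 786O (11.4%), 7 from FaDu (29.6%), and 8 from both DU145 (19.4%) and SAS (29.2%). DU145 differed in 6 from FaDu (20.7%) and in 7 from 786O (10.8%), A498 (13.6%) and SAS (21.8%). The renal lines differed in 8 or 9 genes from the squamous lines and LNCap. The count was 8 between 786O and FaDu (15.9%), 786O and SAS (13.4%), A498 and FaDu (19.6%) and A498 and LNCap (18.4%). It was 9 between 786O and LNCap (17.3%) and A498 and SAS (17.7%). On the second design the count was 1 between the renal lines (8.53%), 9 for 786O against DU145 (19.4%) and against PC3 (21.0%), 6 for A498 against DU145 (12.7%) and against PC3 (14.4%), and 5 between DU145 and PC3 (13.7%).

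CDH1, read by a probe at chr16:68869214-68869273 on hg19, was high in LNCap, FaDu, SAS and DU145, intermediate in PC3 and not above background in the renal lines. The level in LNCap was 4.64. In FaDu the 3 control RNAs gave 5.24, 3.64 and 3.57, and in SAS 3.21, 3.22 and 3.88. The DU145 controls were 3.18 and 2.98. The controls of FaDu and SAS overlapped, and no neighbours among these 4 lines differed in the test. PC3 stood below all of them at 0.14 in the genistein control, -1.61 in the miR-145 control and 0.06 on average in the shared miRNA control. DU145 exceeded PC3 by 3.55 (SE 0.61, limma adjusted p = 0.00302). In 786O and A498 the probe was not well above background. The LNCap level was at least 1394-fold that of 786O and at least 1316-fold that of A498, and the PC3 level at least 40.3-fold that of 786O, where each bound takes the dimmest signal that was still well above background as the level of the dim line (limma adjusted p = 2.86e-05, 5.19e-05 and 0.000402). The second design gave the same order for its renal lines and DU145, with 786O and A498 again not above background and DU145 at 3.86 and 3.40.

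EPCAM, read at chr2:47613894-47613953, was like CDH1 lower in PC3 and the renal lines than in the 4 other lines, but their order was another, from SAS through DU145 and FaDu to LNCap, and it was detected in the renal lines. The SAS controls gave 6.40, 5.90 and 5.28, the DU145 controls 5.03 and 5.44, and the FaDu controls 4.61, 5.36 and 5.07. LNCap was at 4.12. PC3 lay in a narrow band of 2.87 to 3.0 over its 5 channels. The LNCap to PC3 step missed the threshold (1.21, SE 0.44, limma adjusted p = 0.0838), whereas PC3 exceeded 786O (-0.37) by 3.28 (SE 0.44, limma adjusted p = 0.000866) and 786O exceeded A498 (-4.09) by 3.72 (SE 0.54, limma adjusted p = 0.00247). On the second design the 3 controls of 786O did not give 1 level. The control miRNA RNA was at -2.37, near A498 at -2.99, and the untreated RNAs of the CXCL10 experiment were at 1.76 and 1.61.

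VIM was read at chr10:17278347-17279256, a span longer than the probe. It was highest in the renal lines, at 8.51 in A498 and 8.44 in 786O. The prostate lines were split. DU145 was at 6.67 and 7.94, PC3 ran from 6.69 to 7.50 over its channels, and LNCap was at 0.21. PC3 exceeded LNCap by 6.92 (SE 0.70, limma adjusted p = 8.39e-05), and the 4 lines from A498 to PC3 did not differ between neighbours. The squamous lines were lowest. SAS gave -0.56, -1.03 and -2.00, and FaDu gave -3.37 in its si-LAMB3 control with the other 2 controls not well above background. The fitted difference of SAS over FaDu was 3.01 (SE 0.49, limma adjusted p = 0.00243), but it has no exact size, since only 1 of the 3 FaDu controls could be read. That control lay below all 3 of SAS. DU145 therefore had both CDH1 and VIM at high levels in these data, on both designs.

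CDH2 was high in the renal lines and PC3 and low in DU145 and LNCap. A498 was at 4.91, 786O at 4.84 and PC3 at 1.96, 4.01 and 3.20 in its 3 control RNAs. FaDu followed at 1.99, 1.31 and 1.60. The SAS controls were apart from each other, with 1.96 in the control of miR-29a and -0.88 and -1.35 in those of si-LAMB3 and wogonin. LNCap and 1 of the 2 DU145 controls were not well above background. DU145 lay 8.59 below PC3 (SE 0.88, limma adjusted p = 0.000105), and A498 was at least 639-fold above LNCap (limma adjusted p = 0.000966). VIM and CDH2 thus parted in DU145, which had VIM near the PC3 level and CDH2 at the detection limit.

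FN1 had another order, led by a squamous line. SAS gave 2.10, 1.06 and 0.41, 786O 0.51 and A498 -1.61. LNCap was at -2.12 and the PC3 controls at -2.52, -3.11 and -2.03. FaDu and DU145 were not well above background on any array. SAS was at least 78.3-fold above FaDu (limma adjusted p = 9.04e-06) and at least 135-fold above DU145 (limma adjusted p = 7.29e-06). The 5 lines from SAS to PC3 did not differ between neighbours.

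ZEB1, read at chr10:31818063-31818122, was high in the same 4 lines as VIM. The level was 2.15 in 786O, 0.65 in A498, 1.09 to 1.79 over the PC3 channels and -0.53 and 1.27 in DU145. Both squamous lines were far lower, with FaDu at -3.60 and -3.23 and SAS at -4.12 and -3.73 in the controls where the probe was well above background, and in LNCap it was not above background. DU145 exceeded FaDu by 4.14 (SE 0.57, limma adjusted p = 0.000744), and PC3 was at least 114-fold above LNCap (limma adjusted p = 6.58e-05). The paralog ZEB2 was well above background in all controls of the renal lines only. There it was at -0.83 and -1.01 on the first design, and 786O was at least 32.3-fold above DU145 (limma adjusted p = 0.00215). In PC3 it was detected in 2 of 5 channels, and in DU145, LNCap, FaDu and SAS in none.

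SNAI1, the gene of the Snail repressor, was highest in A498 (2.76) and 786O (1.44) and lowest in PC3, whose controls lay between -2.29 and -2.04. DU145 at 0.34 and -0.04 exceeded SAS (limma, 1.29, SE 0.40, adjusted p = 0.0457). SNAI2, the gene of Slug, had the weakest line pattern of the 10, and no neighbours in its order differed. It ran from 1.02 in 786O to -3.64 in LNCap, and the 3 PC3 control RNAs alone spanned -1.71, 1.42 and -0.23. TWIST1 had yet another order. It was highest in PC3 (-0.53 to 0.03) and lower in FaDu (-1.38, -1.34 and -1.24), SAS (-1.86, -1.51 and -1.65) and LNCap (-2.11). FaDu, SAS and LNCap did not differ from each other in the test. TWIST1 was lower again in DU145 (-4.0 and -3.57), which differed from LNCap, and not above background in the renal lines. PC3 exceeded FaDu by 1.17 (SE 0.22, limma adjusted p = 0.00288) and was at least 50.6-fold above 786O (limma adjusted p = 2.04e-06).

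**Figure D1:**
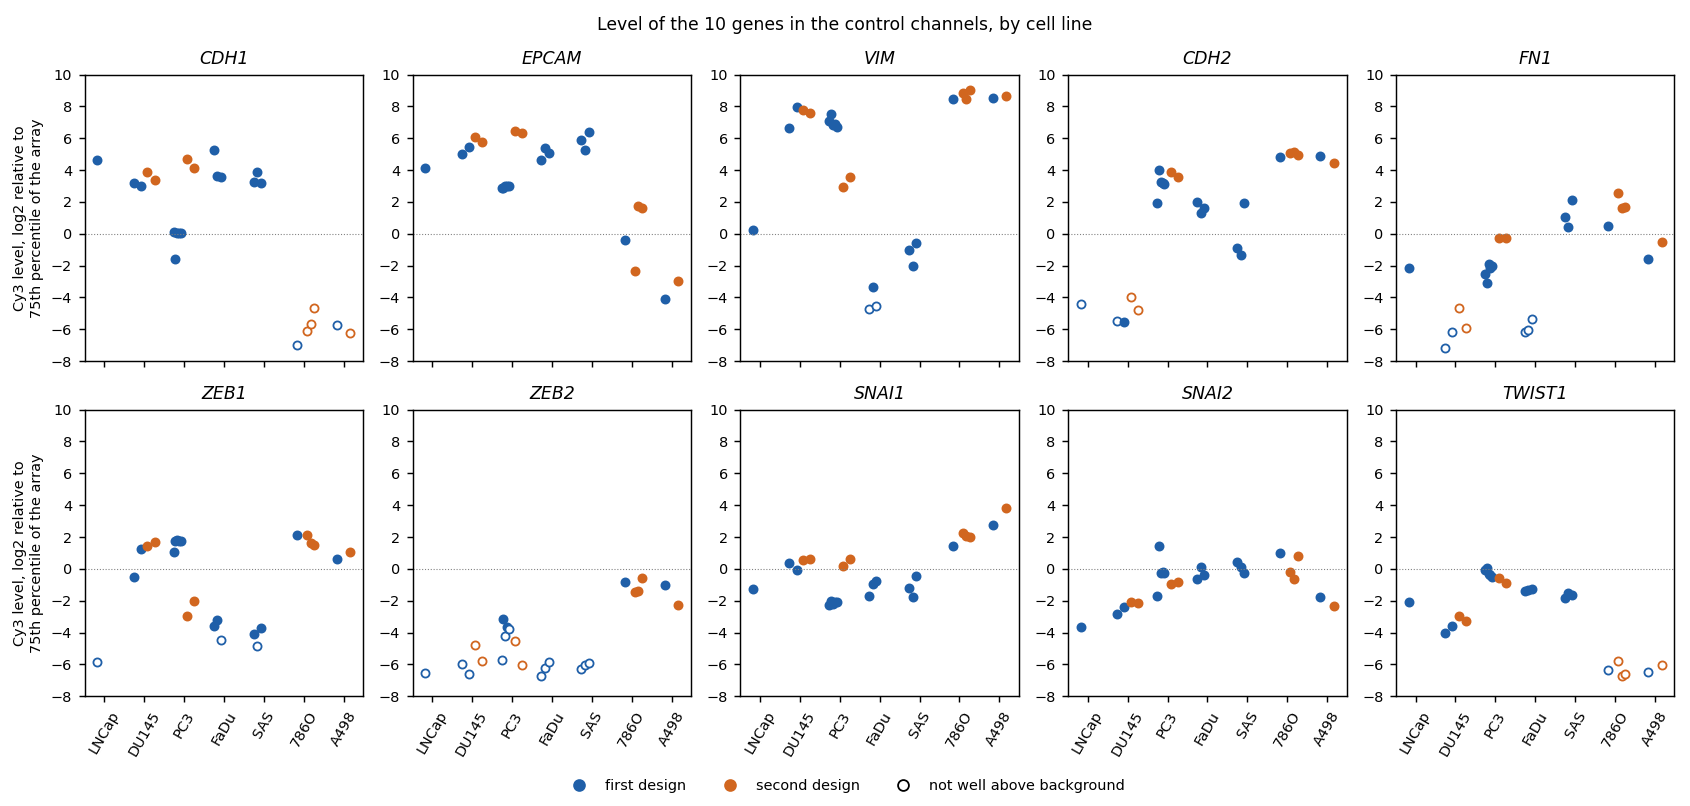
Control (Cy3) level of each of the 10 genes in each line, as log2 signal relative to the 75th percentile of the array, with 1 point per control channel, blue for the first design, orange for the second and open where the probe was not well above background. CDH1 and EPCAM were low or absent in A498 and 786O where VIM, CDH2 and ZEB2 were high. The PC3 points of CDH1, VIM and ZEB1, among other genes, sat apart between the designs.

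Over the 7 line means of the first design, ZEB1 and VIM had a Pearson correlation of 0.891, CDH1 and EPCAM of 0.899 and CDH1 and ZEB2 of -0.995. CDH1 and ZEB1 gave -0.779. TWIST1 was positively correlated with CDH1 (0.764) and negatively with VIM (-0.610). These are descriptions over 7 points from shared arrays, in which the levels of genes not above background carry no order. Among 8727 candidate genes, the closest to CDH1 were OVOL2 (0.992), LAD1 (0.992), ISYNA1 (0.990), MPZL2 (0.987) and KDF1 (0.986), and over the 4 lines of the second design the same genes gave 0.960 to 0.983. For EPCAM they were NAT8L, SPINT1, MAPK13, ZKSCAN8 and DHCR7 (0.963 to 0.986). For VIM they included MGLL, FLNC, AZIN2 and NFE2L3 (0.967 to 0.983). For ZEB1 they were GRK5, ADAM19, DOCK10, STX2 and TSPAN4 (0.971 to 0.992). The likeness carried over to the second design for SPINT1 (0.998), MGLL (0.970) and TSPAN4 (0.984) but not for NFE2L3 (-0.785), GRK5 (-0.412) or ADAM19 (-0.839).

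The wider gene lists, chosen by known role but with earlier results of these data known, also differed between the lines. Of 20 other epithelial genes, 19 differed between the lines of the first design and 18 between those of the second, against 52.2% and 30.4% of all probes. Between 786O and FaDu 18 of the 20 were lower in 786O and none higher, with a median difference of -6.05 against -0.20 over all probes, of which 15.9% passed the test. Between DU145 and PC3 on the first design, 10 were higher in DU145 and none lower (median 1.41, against 0.00 and 19.4%). They included the epithelial splicing regulator ESRP1, at -1.66 in DU145 and -4.07 in PC3, and the tight junction gene CLDN7, at 3.11 and -0.94. This direction did not hold for either gene on the second design. There ESRP1 was at -1.36 in DU145 and 1.01 in PC3, and CLDN7 at 3.62 and 4.42. The small GTPase gene RAB25 was, on the first design, at 2.71 in LNCap, 2.58 in FaDu and 2.52 in SAS. It was at -6.82 to -6.03 in the 4 other lines there, PC3 and DU145 included. On the second design RAB25 was at 1.87 in PC3 and -6.08 in DU145. Of 20 mesenchymal genes, 18 could be tested on the first design and all 18 differed between the lines, whereas on the second design 9 of 17 did, against the same shares of all probes. CD44 (limma adjusted p = 0.153), TNC (0.531) and FBN1 (0.945) were among those that did not pass there. On the first design the secreted glycoprotein gene SPARC was at 5.98 in A498, 4.79 in 786O and 4.37 in SAS. The matrix gene TGFBI was there at 8.54, 8.04 and 8.08 in 786O, A498 and SAS against -5.62 in LNCap. The surface receptor gene CD44 was lowest in LNCap at -4.40 and highest in A498 at 7.08. Of 12 other transcription factor and ID genes, 10 differed on the first design and 7 of the 8 tested on the second. TWIST2 was at 1.37 in FaDu and 1.03 in DU145 and at -6.90 and -6.88 in 786O and A498, and TCF4 at 2.35 in 786O and -5.03 in A498.

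The E-box letters that the ZEB and SNAI factors bind (CACCTG, or CAGGTG on the other strand) were counted in windows from 250 bases before to 50 after the transcript starts in RefSeq on GRCh38.p14. The table held 12 windows of CDH2, VIM, ZEB1, ZEB2 and FN1, and 2 of the 12, both of ZEB1, held the letters. Of all 35116 windows 20.6% did. A match of letters is not a binding site, and the count describes these windows only.

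PC3 was the line in which the 2 designs disagreed on these genes. On the first design CDH1 was at 0.14, -1.61 and 0.06 in its 3 control RNAs, and on the second at 4.69 in the control of miR-143 and 4.15 in that of si-GOLM1. VIM was at 7.10, 7.50 and 6.80 on the first design and at 2.95 and 3.56 on the second. ZEB1 was at 1.09, 1.78 and 1.77 against -2.93 and -2.00. The values of the 2 designs did not overlap for any of the 3 genes, nor did they for EPCAM, SNAI1, FN1 or TWIST1. The share of all probes without overlap was not worked out. EPCAM went from between 2.87 and 3.0 to 6.47 and 6.34.

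**Figure D2:**
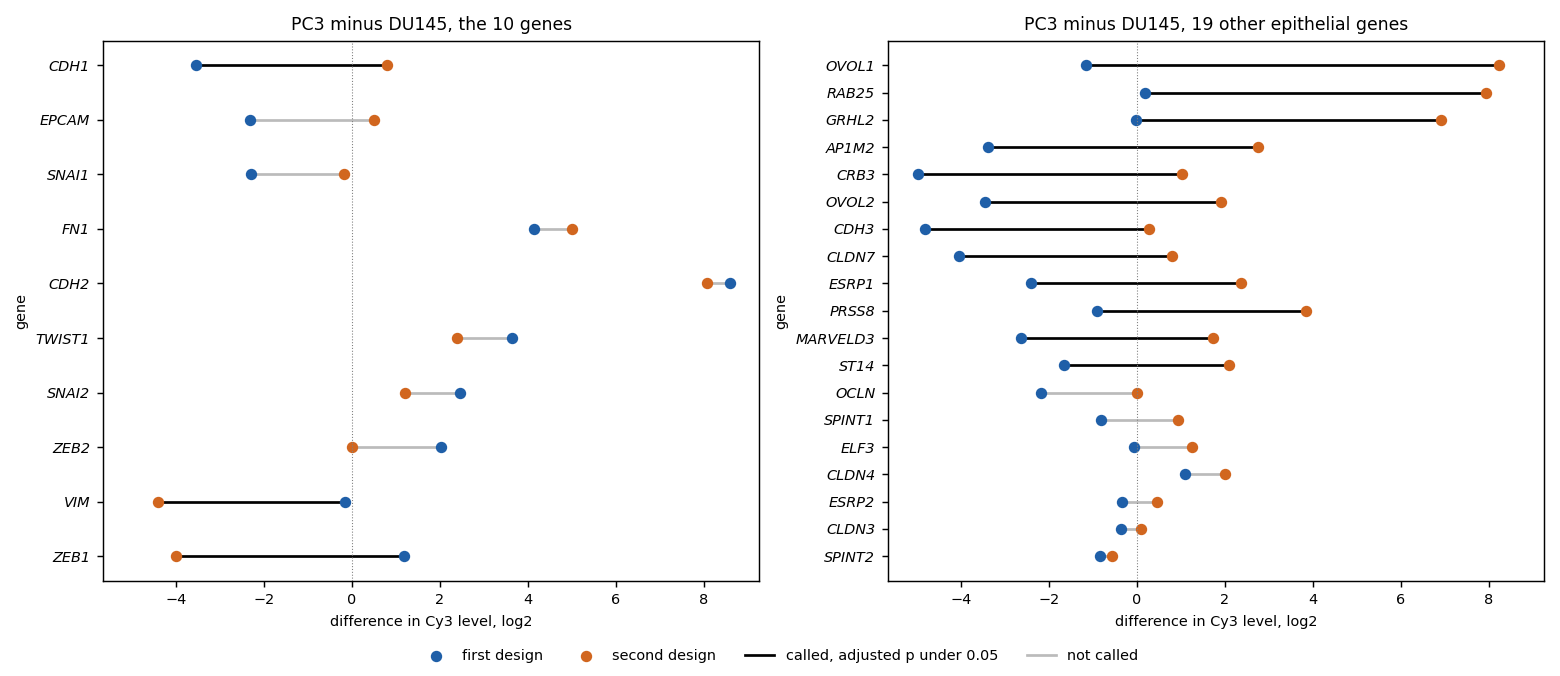
Mean control level in PC3 minus that in DU145, in log2, for the 10 genes (left) and 19 of the 20 other epithelial genes (right), with blue points for the first design, orange for the second and a black line where the 2 differences differed (limma adjusted p under 0.05). CDH1 moved from -3.55 to 0.79, VIM from -0.17 to -4.40 and ZEB1 from 1.17 to -4.02, and 12 of the 19 epithelial genes drawn moved up.

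The same probes in DU145 differed less, with CDH1 at 3.18 and 2.98 against 3.86 and 3.40 and VIM at 6.67 and 7.94 against 7.75 and 7.57. ZEB1 in DU145 was at -0.53 and 1.27 against 1.45 and 1.66, so DU145 holds part of its change. The DU145 values of CDH1 and ZEB1 did not overlap between the designs either. The change between designs was therefore tested as the difference between PC3 and DU145 on the second design minus that on the first. This comparison was added after the values were seen. It was 4.34 for CDH1 (SE 0.87, limma adjusted p = 0.0242), -4.23 for VIM (SE 0.73, limma adjusted p = 0.00804) and -5.19 for ZEB1 (SE 0.77, limma adjusted p = 0.00317). The second ZEB1 probe gave -4.34 (limma adjusted p = 0.00301). These 3 of the 10 genes passed, against 1.46% of 29739 probes. SNAI1 (2.12, limma adjusted p = 0.0658), EPCAM (2.81, 0.38), ZEB2 (-2.03, 0.397) and TWIST1 (-1.25, 0.195) did not, and CDH2 (-0.52, 0.919), high in PC3 on both designs, FN1 (0.88, 0.745) and SNAI2 (-1.25, 0.685) were further from the threshold. No gene of the 10 passed for 786O or A498 against DU145, where 0.0504% and 0.168% of probes did.

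Of the 20 other epithelial genes, 13 were higher in PC3 of the second design and none lower, with a median of 4.68 against -0.05 over all probes. The grainyhead factor GRHL2 was at -4.55 in PC3 on the first design and 1.13 on the second, and stayed at -4.53 and -5.79 in DU145. OVOL1, a repressor of the transition, was at -5.27 and 2.36 in PC3 and at -4.11 and -5.87 in DU145. CLDN7 was at -0.94 and 4.42 in PC3 and at 3.11 and 3.62 in DU145. None of the 19 mesenchymal genes tested passed (median -0.87), and of the 12 other factors TWIST2 did. The squamous marker list had 2 of 8 higher, KRT6A and TRIM29, and none of the luminal or renal lists passed. The prostate gene HOXB13 was at 5.46 and 2.70 in PC3 on the first and second design and at -7.02 and -6.13 in DU145. Over 25980 probes shared by the designs, PC3 controls of the second design correlated with those of the first at 0.913 to 0.942 and with other lines at 0.82 to 0.894, while DU145 gave 0.95 to 0.977 for the same line. Leaving out each of the 9 control RNAs in turn kept ZEB1 past the threshold in all 9, VIM in 8 and CDH1 in 5, with ranges of -6.09 to -4.29, -4.87 to -3.60 and 3.77 to 4.64. Without the PC3 control of miR-143, VIM (-3.93) and CDH1 (4.07) were lost. CDH1 was also lost without the PC3 control of si-GOLM1 (4.61), the DU145 control of si-GOLM1 (4.10) or that of genistein (4.24). Slide, array design, scan and the PC3 cultures used cannot be told apart in this comparison.

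The responses to treatment are log2 ratios of Cy5 over Cy3 on 1 array each, so they have no replicate and no p-value. A gene counted as past the limit at a ratio above 1 or below -1, a 2-fold difference, where its probe was detected (well above background) in 1 channel or both. Of 240 values, 203 could be read, and 24 passed, 11 higher and 13 lower in treated cells, on 12 of the 24 arrays. All 24 were on the first design, where 2.81% to 26.2% of all probes passed on each array. On the second design 0 of 64 values passed, between -0.90 and 0.68, where 1.60% to 4.30% of all probes did, with 4.17% and 4.22% on the arrays of DU145 after miR-143 and PC3 after si-GOLM1. The si-CAV2 arrays of A498 and 786O had none of the 10 past the limit, where 3.18% and 2.81% of probes were. The error beside a ratio is that of the scanner software for 1 array and holds no biological spread. For some genes the control RNAs of 1 line lay further apart than the limit of 1. Examples are CDH1 in FaDu (5.24, 3.64 and 3.57), SNAI2 in PC3 (-1.71, 1.42 and -0.23) and CDH2 in SAS (-0.88, -1.35 and 1.96). A ratio past the limit can therefore lie within the spread of the controls.

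**Figure D3:**
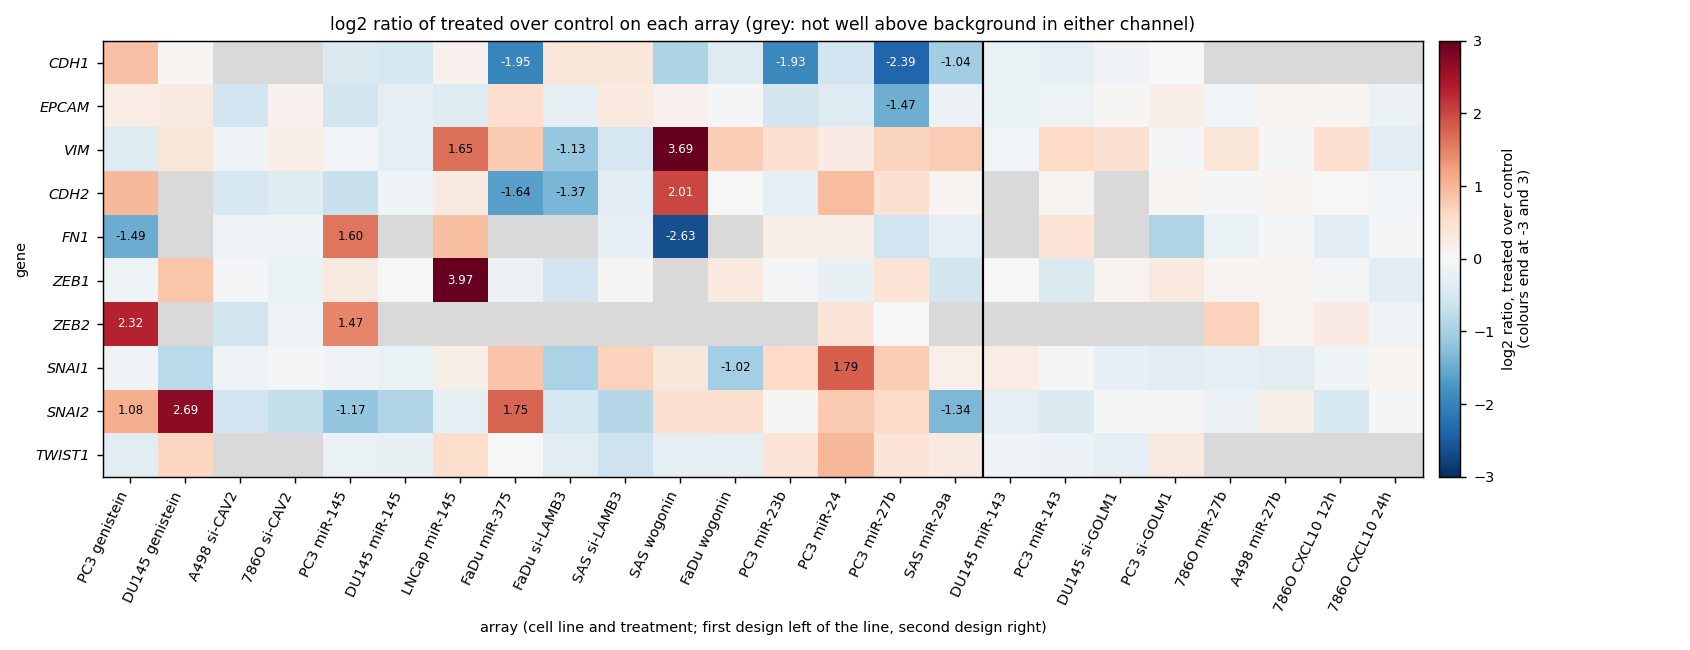
Log2 ratio of treated over control cells for the 10 genes on each of the 24 arrays, in colour, red above and blue below 0, with the 24 values past the limit printed and grey where the probe was too dim on both sides. CDH1 had 4 values below -1 and none above 1, and the 8 arrays of the second design held none past the limit.

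CDH1 was past the limit on 4 arrays, lower on each of them. It was -2.39 ± 0.31 (software error) after miR-27b and -1.93 ± 0.27 after miR-23b, both in PC3, -1.95 ± 0.27 after miR-375 in FaDu and -1.04 ± 0.23 after miR-29a in SAS. The control of the miR-375 array had CDH1 at 5.24, above the other FaDu controls at 3.64 and 3.57. The 10 spots of the probe on each of these arrays agreed within an SD of 0.029 to 0.174. The other 14 readable values ran up to 0.89, in PC3 after genistein, and SAS after wogonin was at -0.93. The 3 miRNAs in PC3 had 1 control RNA, and miR-24 on that control gave -0.57. In 786O and A498, where miR-27b was also transfected, CDH1 was not above background in either channel and could not be read. EPCAM was past the limit only after miR-27b in PC3, at -1.47 ± 0.24, with -0.54 after miR-23b and -0.38 after miR-24. On the miR-27b array 13.9% of all probes were past the limit, on the miR-23b array 11.4%, on the miR-375 array 22.7% and on the miR-29a array 10.5%.

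On the 2 PC3 arrays with low CDH1, the mesenchymal genes and factors of the 10 stayed within the limit. After miR-27b VIM was at 0.67, CDH2 at 0.46, ZEB1 at 0.41 and SNAI1 at 0.73. After miR-23b they were at 0.51, -0.28, -0.07 and 0.60. PC3 after miR-24 had SNAI1 at 1.79 ± 0.27 and TWIST1 at 1.0, just inside the limit, on the array with the highest share of probes past it (26.2%). A second CDH2 probe gave 1.15 there and the main one 0.92. Among the other epithelial genes, ELF3 was lower on all 3 of these arrays, and AXL, a receptor kinase gene of the mesenchymal list, was higher at 3.60 after miR-23b, 4.03 after miR-27b and 1.37 after miR-24.

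In FaDu after miR-375 both cadherins were lower, CDH2 at -1.64 ± 0.25 beside CDH1, and a second CDH2 probe gave -1.06. SNAI2 was higher at 1.75 ± 0.26, and EPCAM was at 0.50. Of the other 20 epithelial genes 7 were lower and 1 higher (median -0.43, against 0.05 over all probes). Of 15 mesenchymal genes 3 were higher and 5 lower, and of 8 squamous markers 4 were lower and 1 higher. On this array 10.5% of all probes were above 1 and 12.2% below -1. FaDu after si-LAMB3 had CDH2 at -1.37 ± 0.24 and VIM at -1.13 ± 0.40 (10.5% of probes past the limit), whereas SAS after si-LAMB3 had none of the 10 past it, with CDH2 at -0.35 and VIM at -0.51 (14.8%). SAS after miR-29a had SNAI2 at -1.34 ± 0.25 beside CDH1. Of 16 other mesenchymal genes there, 6 were lower, the collagen-binding SPARC among them at -3.22, and AXL was higher at 1.01. Of all probes on the miR-29a array 3.63% were below -1 and 6.89% above 1.

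Wogonin, a flavone, gave the largest VIM ratio, 3.69 ± 0.40 in SAS, with CDH2 at 2.01 ± 0.28 and FN1 at -2.63 ± 0.32 on the same array (14.1% of probes past the limit). A second CDH2 probe gave 1.83. CDH1 was at -0.93 and EPCAM at 0.13. FN1, a mesenchymal gene, was thus lower where VIM and CDH2 were higher. Of the 20 other epithelial genes 7 were lower and none higher (median -0.54, against 0.10), and of 16 mesenchymal genes CDH11 was higher and 3 were lower, ITGA5 and FAP among them. FaDu after wogonin had VIM at 0.74, CDH2 at -0.02 and SNAI1 at -1.02 ± 0.24, the last at the limit (11.0%).

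After genistein, an isoflavone, SNAI2 was past the limit in both prostate lines, at 2.69 ± 0.32 in DU145 and 1.08 ± 0.23 in PC3. With another background correction the DU145 value stayed past it, at 1.66 with normexp and 2.02 with none. The PC3 value did not, at 0.77 and 0.91. DU145 had nothing else of the 10 past the limit (12.5% of probes), with ZEB1 at 0.84 and SNAI1 at -0.80. PC3 had FN1 at -1.49 ± 0.35 and ZEB2 at 2.32 ± 0.59 (17.8%). Both were within the limit with another background correction, at -0.42 and 0.52 with normexp and -0.49 and 0.92 with none. In that control ZEB2 was too dim to be read, and its treated level was at least 3-fold the dimmest readable signal. CDH1 was at 0.89 and CDH2 at 0.98 in PC3. Of 18 other epithelial genes in PC3 5 were higher and 2 lower (median 0.63, against 0.08).

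For miR-145 the 3 prostate lines gave different members. LNCap had VIM at 1.65 ± 0.25 and ZEB1 at 3.97 ± 0.47 (8.84% of probes past the limit). In the LNCap control the ZEB1 probe was too dim to be read, so the ratio has no exact size. In the processed signals it stands for at least 10.6-fold, but that bound rests on the background correction, as the log2 ratio was 1.10 with normexp and 1.54 with no correction. Its 2 spots differed with an SD of 1.04. The second ZEB1 probe gave 3.17, at least 4.17-fold. PC3 had FN1 at 1.60 ± 0.27, ZEB2 at 1.47 ± 0.27 and SNAI2 at -1.17 ± 0.23 (14.2%), and DU145 had none (5.66%), with SNAI2 at -0.90. CDH1 was at 0.12, -0.43 and -0.53 in LNCap, PC3 and DU145. In LNCap genes of other cell types were higher with them. Of 8 squamous markers 4 could be read and 3 were higher, KRT14, KRT6A and TRIM29 (median 2.70), and of 12 mesenchymal genes 4 were higher, FBN1, TNC, CD44 and FAP, and none lower (median 0.51, against -0.10). Of probes high in another line and not above background in LNCap, 21.5% to 26.2% had ratios above 1, with medians of 0 to 0.03. Of all probes on that array 6.55% were above 1. The same measure was not particular to LNCap. On the other arrays of the first design it ran from 1.72% (FaDu after wogonin) to 33.3% (PC3 after miR-24), with 8.22% to 27.1% in DU145 and 11.8% to 20.7% in PC3 after miR-145. The part of such probes in the result was not tested.

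**Figure D4:**
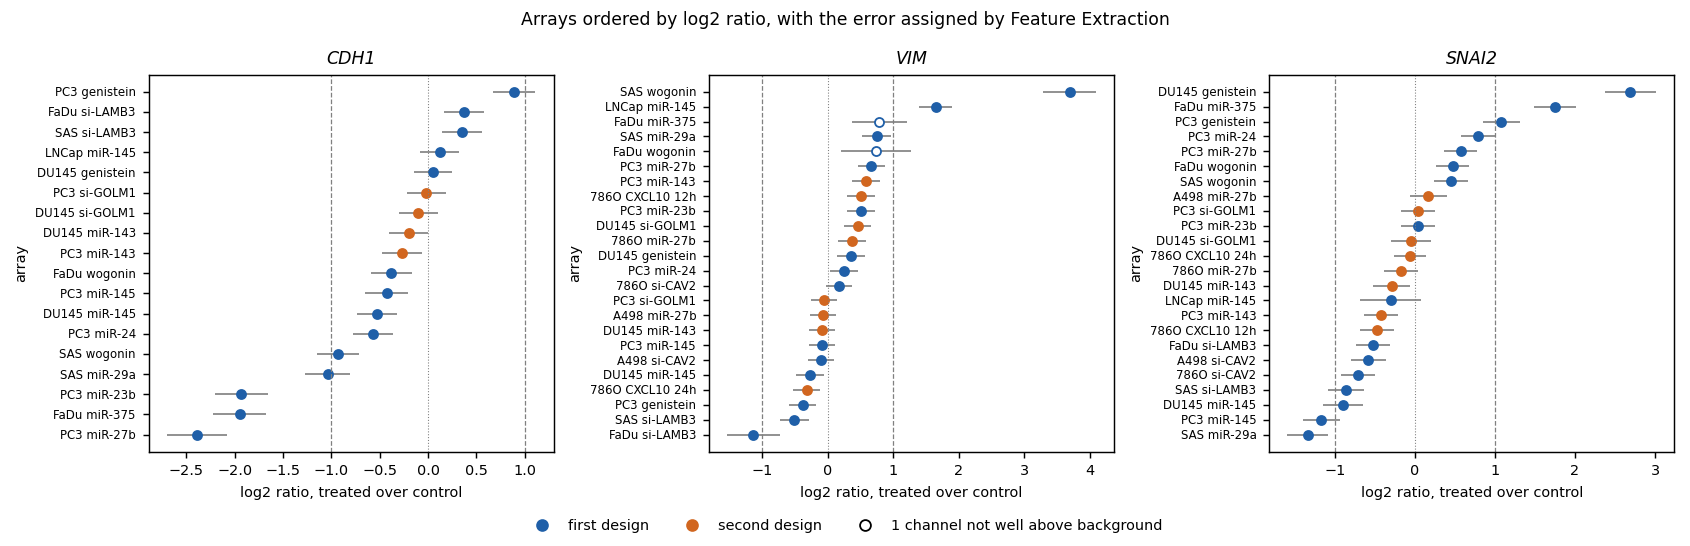
The readable log2 ratios of CDH1, VIM and SNAI2, each point 1 array in order of its ratio, with the software error as bars and dashed lines at -1 and 1. CDH1 passed the limit on the low side only, on 4 arrays, VIM passed it after wogonin in SAS (3.69) and miR-145 in LNCap (1.65) and on the low side after si-LAMB3 in FaDu (-1.13), and SNAI2 also passed it in both directions.

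Over the arrays of a treatment, a limma fit tested each mean ratio against 0 in the treatments with 2 or more arrays. SNAI2 under genistein passed, at 1.89 (SE 0.35, adjusted p = 0.0245, higher on 2 of 2 arrays), where 7.31% of 25751 probes did. Without the DU145 array the PC3 value of 1.08 no longer passed, and neither did 1.89 in a fit of the 2 genistein arrays alone. No other gene of the 10 passed under genistein, miR-145 (4.57% of probes), si-CAV2 (0.0397%), si-LAMB3 (5.17%) or wogonin (1.87%), or on the second design under miR-143 (0.00385%), miR-27b (0.0753%), si-GOLM1 (0.0799%) or CXCL10 (0.0153%). Short of the threshold, VIM under wogonin was at 2.22 (SE 0.68, limma adjusted p = 0.131), with both lines positive, and CDH1 at -0.66 (SE 0.24, limma adjusted p = 0.185), with both negative. SNAI2 under miR-145 was negative in all 3 lines (-0.79, SE 0.28, limma adjusted p = 0.159), as was EPCAM (-0.39, SE 0.17, limma adjusted p = 0.228). At an unadjusted limma p under 0.05 were also CDH1 and SNAI2 under miR-143 (-0.24 and -0.35, limma adjusted p = 0.348 and 0.379). So was SNAI1 under miR-27b and under si-GOLM1 (both -0.29, limma adjusted p = 0.362 and 0.29). The share of all probes at that unadjusted limit was not worked out. Among the wider lists, ESRP1 (1.32) rose and AP1M2 (-2.14) and FSTL1 (-1.51) fell with si-LAMB3, TAGLN (1.26) rose and S100A4 (-1.11) fell with genistein, KRT14 (3.64) and FAP (2.70) rose with miR-145, and ITGA5 (-1.46) fell with wogonin (limma adjusted p from 0.0107 to 0.0365). The CXCL10 fit pairs 2 times in 1 line, so its spread is that between times.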

How the data were processed

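The authors deposited the Agilent Feature Extraction 10.7.3.1 output of each array. The intensity of each spot was, in these deposited files, already corrected by the software for background and dye. The deposited log10 ratios (Cy5 to Cy3) were converted to log2. The series matrix deposited by the authors held the same log10 ratios (largest difference 0.0). Gene names and hg19 positions are those of the deposited files. The members and lists were chosen with earlier results of these data known.

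Control spots and spots with outlier flags (419 to 614 of 58717 on an array) were left out and spots of a probe averaged. A probe counted as detected, or well above background, if a share of 0.5 or more of its spots was. Levels were log2 Cy3 signals minus the 75th percentile of the array. A gene was read by its probe of highest mean level. Lines were compared with limma 3.58.1 in R 4.3.3, with Benjamini-Hochberg adjustment over all tested probes and a limit of 0.05, on each design apart. A fit over both designs was added after the values were seen. Treatments were fitted over the arrays of a design. Counts and figures were made in Python 3.11.15. The named genes outside the 10 were those of each list with the widest range of line means, those with the largest changes past the limit, and the 5 closest correlates. ESRP1, CLDN7, GRHL2, OVOL1, HOXB13 and ELF3 were picked after their values were seen. Some genes of the lists are not reported here by name but stay in the counts.

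On simulated data the fit of DU145 against PC3 on the first design recovered 0 of 200 probes at a log2 difference of 1, 93 at 2 and 175 at 4, and on the second design 0, 0 and 116. The number of arrays limits the precision. Alternatives were other background corrections, centring, normalization, the Cy5 channel, slide as a block, other limits, and leaving out each array.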

Additional observations from a re-analysis of the deposited data

Results flagged for a closer look

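SNAI1 had ratios of opposite sign after si-LAMB3, at -0.95 in FaDu and 0.70 in SAS, each on 1 array and neither past the limit of 1. The difference was not tested.

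The difference between PC3 and DU145 controls changed between the array designs by 4.34 for CDH1, -4.23 for VIM and -5.19 for ZEB1 (second minus first design, limma adjusted p = 0.0242, 0.00804 and 0.00317). Each test asks whether the 2 differences differ. The control RNAs of PC3 differ between the designs in the labelled experiment as well as in slide and array design, and these cannot be told apart.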

How the results depend on the processing

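No paired analysis was possible because the labels give no replicate numbers and each line and treatment had 1 array. The 24 member ratios past 1 (11 higher, 13 lower) became 7 and 8 with normexp background correction and loess, and 8 lower without background correction. They became 18 and 20 with the mean of the slide's other treatments subtracted, and 34 and 34 at a limit of 0.5. Of the 24, 15 were kept with normexp, 17 without background correction, and 24 with median centring and with the mean over probes. Lost with normexp were VIM after si-LAMB3 (-0.32) and SNAI1 after wogonin (-0.60) in FaDu, ZEB2 (0.52), SNAI2 (0.77) and FN1 (-0.42) after genistein and ZEB2 (0.82), SNAI2 (-0.96) and FN1 (0.86) after miR-145 in PC3, and SNAI2 after miR-29a in SAS (-0.90). ZEB1 after miR-145 in LNCap was 1.10 and VIM after wogonin in SAS 2.64 with normexp. Against the other arrays of its slide CDH1 after miR-29a in SAS was lost. The treatment fit called 2 members against the mean of other treatments, 0 from the arrays of each treatment alone, and 0 to 1 with each array left out. With each control left out, members differing between lines stayed at 10 on the first design and were 8 to 10 on the second, pairs were 123 to 135 and 27 to 41, and the PC3 calls between designs 1 to 3. SNAI2 lost its line difference on both designs with the Cy5 channel, on the first with slide as a block, and on the second with normexp or without a DU145 or PC3 control. EPCAM lost that of the second design without any of these 4 controls. No direction was reversed. The causes were not tested. Signal over background limits CDH1 in the renal lines, ZEB2 outside them, and FN1 in FaDu and DU145.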

Other observations

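Outside the 10 genes, AXL, a receptor tyrosine kinase gene of the mesenchymal list, had ratios above 1 on 9 of 24 arrays and below -1 on none. The values were 3.60, 1.37 and 4.03 in PC3 after miR-23b, miR-24 and miR-27b, which share a control, 2.21 in PC3 after miR-145 and 1.98 after miR-143. They were 1.75 in A498 after miR-27b, 1.01 in SAS after miR-29a, and 2.30 and 1.32 in FaDu and SAS after si-LAMB3. Under genistein, si-CAV2, wogonin, si-GOLM1 and CXCL10 it ran from -0.94 to 0.69. On the other arrays of miRNAs it was within the limit, at 0.23 in DU145 and -0.13 in LNCap after miR-145, 0.07 in FaDu after miR-375, 0.60 in DU145 after miR-143 and 0.57 in 786O after miR-27b. ELF3, an epithelial transcription factor gene, was below -1 on 7 arrays and above 1 on 1, and 4 of the 7 were the arrays on which CDH1 was below -1. AXL and ELF3 were picked after their values were seen, and no test was made. KLK3, of the luminal prostate list, was also above 1 on 9 arrays and below -1 on none. The shares of all probes with counts like those of AXL and ELF3 were not worked out.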
